A study of Mus musculus with 8 samples.

Results

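The subunits of the phagocyte NADPH oxidase were followed in the hippocampus of Tg6799 mice, a transgenic model of Alzheimer's disease. The genes were Cyba, Cybb, Ncf1, Ncf4 and Rac2, 5 of the 18193 genes that had a probe set annotated to their symbol alone. All probe sets annotated to 1 of these symbols were taken, 10 of 45037, and each gene was represented by its brightest probe set, judged by the mean of all 8 arrays. Tg6799 mice, called MT, carry mutant human APP and PS1 transgenes driven in neurons by Thy1 promoter sequence, and LM are littermates without that genotype. All mice were female, and both genotypes were taken at 4 and at 8 months of age, with no treatment named. Each of the groups LM4m, MT4m, LM8m and MT8m had 2 arrays, each of which measured hippocampal RNA on an Affymetrix mouse array. Whether each array held the RNA of 1 animal or of a pool is not stated, and the p-values cover only the spread between arrays, part of which may be technical. Values are log2 expression values, normalized between arrays by the authors.

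The phagocyte NADPH oxidase carries electrons from NADPH in the cytosol across a membrane to oxygen and so makes superoxide. Its membrane part, cytochrome b558, joins the catalytic subunit gp91phox, encoded by Cybb, with p22phox, encoded by Cyba, which holds the pair stable. In resting cells the regulatory subunits stay in the cytosol. After phosphorylation, p47phox, encoded by Ncf1, carries them to the membrane, p40phox, encoded by Ncf4, binds phosphoinositides of the phagosome, and the GTPase Rac2 completes the active complex. In the brain the complex is best known from microglia, where superoxide is released after contact with amyloid and other ligands. Subunits of the complex outside these 5 genes and those named below were not analysed here.

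The RefSeq promoter table (assembly GRCm38.p6) held 3 of the 5 genes, Cyba, Cybb and Ncf1, which were also the subunits with the widest gap between the MT8m arrays. Their promoters are shown from 250 bases before to 50 bases after the start site, on the strand of the gene, with the letters of 4 motifs known from promoters of myeloid genes or of genes in general in capitals. The windows lie at chr8:122432891-122433190 (minus strand, Cyba), chrX:9469275-9469574 (minus strand, Cybb) and chr5:134229576-134229875 (minus strand, Ncf1).
Cyba: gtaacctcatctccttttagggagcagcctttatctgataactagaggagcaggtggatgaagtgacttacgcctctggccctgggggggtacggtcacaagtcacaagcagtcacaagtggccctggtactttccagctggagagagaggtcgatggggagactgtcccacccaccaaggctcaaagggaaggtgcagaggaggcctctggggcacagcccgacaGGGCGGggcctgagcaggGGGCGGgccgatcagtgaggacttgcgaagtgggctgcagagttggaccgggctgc
Cybb: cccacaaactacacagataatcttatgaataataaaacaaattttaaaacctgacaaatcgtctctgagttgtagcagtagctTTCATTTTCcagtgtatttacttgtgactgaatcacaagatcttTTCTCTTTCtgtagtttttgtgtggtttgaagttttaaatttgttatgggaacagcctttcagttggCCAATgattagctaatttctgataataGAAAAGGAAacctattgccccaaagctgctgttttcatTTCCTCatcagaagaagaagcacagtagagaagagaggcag
Ncf1: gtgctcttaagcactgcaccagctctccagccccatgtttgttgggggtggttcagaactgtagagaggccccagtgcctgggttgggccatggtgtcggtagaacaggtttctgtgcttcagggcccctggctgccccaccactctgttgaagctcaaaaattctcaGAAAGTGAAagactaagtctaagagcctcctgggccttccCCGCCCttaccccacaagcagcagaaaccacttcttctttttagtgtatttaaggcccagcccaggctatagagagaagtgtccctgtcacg
The motifs searched on both strands were GAGGAA, the core bound by the myeloid factor PU.1, GAAANNGAA, bound by interferon regulatory factors, the CCAAT box and GGGCGG, the Sp1 box. The Cybb promoter held 3 matches to the interferon regulatory factor motif, 1 to the PU.1 core and 1 to the CCAAT box. The Ncf1 promoter held 1 interferon regulatory factor match and 1 Sp1 box, and the Cyba promoter held 2 Sp1 boxes and none of the other letters. No matches of different motifs overlapped in these windows. Of all 32851 promoters in the table, 8.56% held the interferon regulatory factor motif, 28.3% the PU.1 core, 37.4% the CCAAT box and 35.7% the Sp1 box. These matches describe the letters of the windows. The start site used for Cybb lies inside the annotated span of the gene, at chrX:9435252-9487766. Ncf4 lies at chr15:78244164-78262582 and Rac2 on the same chromosome at chr15:78559169-78572783.

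The labels were checked on genes that mark the transgene, plaque microglia and sex. The transcript of Thy1 was between 9.53 and 9.96 on the littermate arrays and 11.7, 11.8 and 11.8 on MT4m replicate 1, MT4m replicate 2 and MT8m replicate 2, but 9.90 on the array labelled MT8m replicate 1. Cst7, a gene of microglia around plaques, was 1.75 on that array and 8.03 on MT8m replicate 2. Choroid plexus markers did not place that array with the littermates. All 6 were lower on both MT8m arrays than on both LM8m arrays, as were 13.1% of all probe sets. Of these markers, Kcnj13 was 3.61 on the array labelled MT8m replicate 1, 3.21 on MT8m replicate 2 and at least 6.26 on the littermate arrays. The label is kept as given, and the subunits' genotype differences at 8 months are also given without the array labelled MT8m replicate 1. Because that array was singled out by Thy1, Cst7 and Gfap, such values are chosen on the outcome for genes that vary with them and are no independent evidence. Xist was at least 9.55 on every array. Correlations between arrays lay between 0.985 and 0.993.

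Expression of the subunits was low. Ncf1 had the highest mean over the 8 arrays (3.98, at the 68.1 percentile of all probe set means), followed by Cyba (3.74, 66.0), Ncf4 (2.24, 44.4), Rac2 (2.08, 39.1) and Cybb (1.80, 26.2). The median over all probe sets was 2.475, so that 3 of the 5 genes lay below it. Brightness of different probe sets does not order transcript levels, and it is given here to show how far each probe set stood from the bottom of the scale. As a guide to that bottom, the 9 probe sets of Y-linked genes, which these female mice lack, gave values between 1.16 and 1.99. The Cybb probe set lay within this range on 7 of the 8 arrays, and those of Ncf4 and Rac2 on 3 each, including both LM4m arrays for Ncf4. Ncf1 and Cyba were above it on all 8. Where a comparison group lay in this range, differences are given on the log2 scale with no fold.

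Ncf1, the subunit that brings the others to the membrane, measured 3.60 and 3.62 in LM4m, 4.05 and 4.18 in MT4m, 3.27 and 3.59 in LM8m, and 3.79 and 5.72 in MT8m. The 4 MT arrays were all above the 4 LM arrays, the lowest MT array at 3.79 against the highest LM array at 3.62. Of the 10 probe sets, 1 was separated in this way, and 1.47% of all probe sets were. The group means were 3.61 ± 0.02 (SD, n = 2) in LM4m and 4.11 ± 0.09 in MT4m, and 3.43 ± 0.22 in LM8m and 4.75 ± 1.37 in MT8m.

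Cyba, the stabilizing partner of the catalytic subunit, measured 3.77 and 3.11 in LM4m, 4.05 and 3.78 in MT4m, 3.09 and 3.69 in LM8m, and 3.10 and 5.37 in MT8m. MT4m lay just above LM4m, 3.776 on its lower array against 3.768 on the higher littermate array. At 8 months the groups overlapped, since MT8m replicate 1 lay within the littermate values and MT8m replicate 2 was the highest of all arrays.

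Cybb, the catalytic subunit, measured 1.86 and 1.49 in LM4m, 1.80 and 1.41 in MT4m, 1.50 and 1.80 in LM8m, and 1.56 and 3.03 in MT8m. Only MT8m replicate 2 stood clear of the other arrays, and the groups overlapped at both ages.

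Ncf4, which helps the complex to assemble on phagosomes, measured 1.97 and 1.99 in LM4m, 2.81 and 2.29 in MT4m, 2.17 and 1.97 in LM8m, and 2.07 and 2.68 in MT8m. Both MT4m arrays were above both LM4m arrays, with MT4m replicate 1 the highest of all arrays and MT8m replicate 2 next. The 8-month groups overlapped.

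Rac2, the GTPase of blood cells in the complex, measured 2.07 and 1.85 in LM4m, 1.97 and 2.17 in MT4m, 2.04 and 2.22 in LM8m, and 1.93 and 2.42 in MT8m. Its range over the 8 arrays, 0.57, was the narrowest of the 5 genes, and the groups overlapped at both ages.

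**Figure D1:**
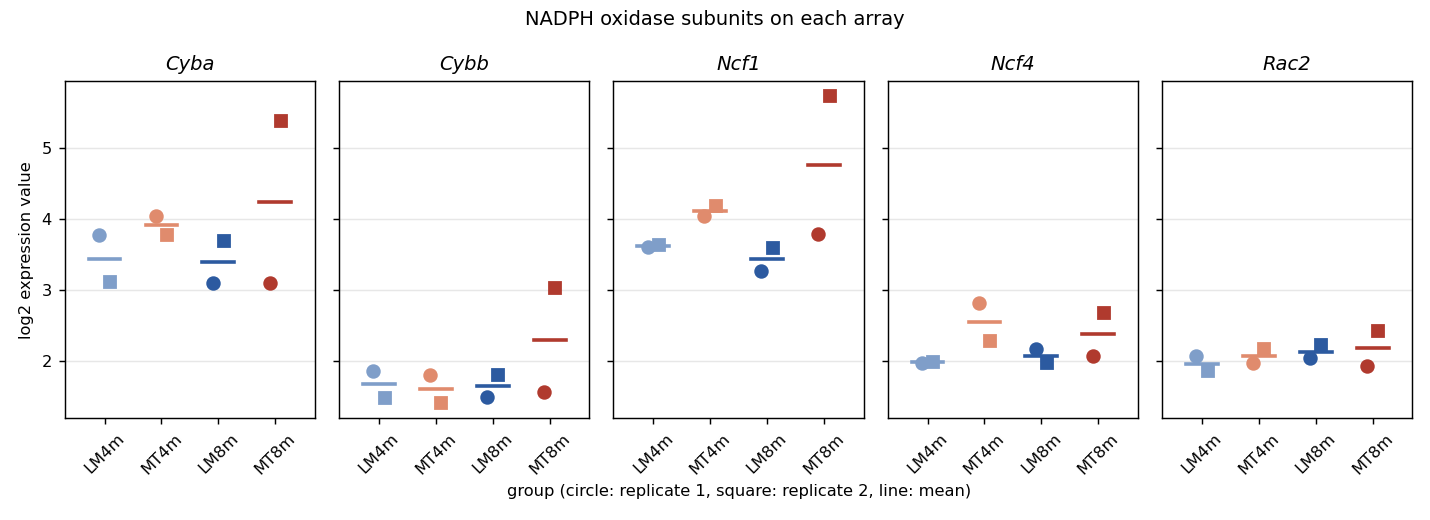
Log2 expression value (y axis) of the brightest probe set of each subunit on the 2 arrays of each group (x axis). Replicate 1 is drawn as a circle, replicate 2 as a square and the group mean as a line. MT8m replicate 2 is the highest array for Cyba (5.37), Cybb (3.03), Ncf1 (5.72) and Rac2 (2.42), and MT4m replicate 1 for Ncf4 (2.81).

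The first comparison asked whether the subunits differed between MT and LM at 4 months. None of the 5 genes passed the test, limma across all 45037 probe sets with Benjamini-Hochberg adjustment and an adjusted p under 0.05 as the threshold, which 0% of all probe sets passed here. Differences are MT minus LM by the sample labels, and the direction is opposite to that of the study's published gene tables, in which MT and LM are exchanged for these arrays. Ncf4 differed by 0.57 ± 0.23 (SE) on the log2 scale, with a 95% interval from 0.04 to 1.10 (limma, adjusted p = 0.944) and with both LM4m arrays in the range of the Y-linked probe sets. Ncf1 differed by 0.50 ± 0.49 and Cyba by 0.47 ± 0.61. Rac2 differed by 0.11 ± 0.18 and Cybb by -0.07 ± 0.40, both less than their standard errors. Both MT4m arrays were above both LM4m arrays for 3 of the 5 genes, Cyba, Ncf1 and Ncf4, a separation that 17.2% of all probe sets showed. The median of the 5 differences was 0.47, beside -0.02 over all genes.

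At 8 months the differences rested on 1 array, MT8m replicate 2. Ncf1 differed most, 1.33 ± 0.49 with a 95% interval from 0.20 to 2.45, which is 2.51-fold, but its adjusted p rounded to 1.00, and none of the 5 genes passed the limma test, which 0.02% of all probe sets passed. Cyba differed by 0.84 ± 0.61, Cybb by 0.65 ± 0.40, Ncf4 by 0.30 ± 0.23 and Rac2 by 0.05 ± 0.18. Both MT8m arrays were above both LM8m arrays for 1 of the 5 genes, Ncf1, against 15.2% of all probe sets. The median of the 5 differences was 0.65, beside 0.00 over all genes.

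Against the LM8m mean, MT8m replicate 2 was 4.91-fold higher for Ncf1, 3.95-fold for Cyba and 1.22-fold for Rac2. For Cybb and Ncf4, whose LM8m values lay wholly or partly in the range of the Y-linked probe sets, it stood 1.38 and 0.60 above that mean on the log2 scale. The array labelled MT8m replicate 1 differed from the LM8m mean by 0.36 for Ncf1, -0.29 for Cyba, -0.09 for Cybb, -0.01 for Ncf4 and -0.19 for Rac2 on the log2 scale, so only Ncf1 was above it there. MT8m replicate 2 was the highest of the 8 arrays for 4 of the 5 genes and for 14.3% of all probe sets. The gap between the MT8m arrays was 2.27 for Cyba, and 0.264% of the 18193 genes had a gap at least as large in the same direction. For Ncf1 the gap was 1.94 (0.335% of genes) and for Cybb 1.47 (0.693%). Ncf4 and Rac2 had smaller gaps, 0.61 (4.36%) and 0.48 (6.55%).

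Averaged over both ages, Ncf1 was 0.91 ± 0.35 higher in MT (95% interval 0.12 to 1.71, 1.88-fold, limma adjusted p = 0.853) and Ncf4 0.43 ± 0.16 higher (0.06 to 0.81, limma adjusted p = 0.853). Neither passed after adjustment, and 0.06% of all probe sets did. The averaged differences of Cyba (0.66 ± 0.43), Cybb (0.29 ± 0.29) and Rac2 (0.08 ± 0.13) had intervals that included 0. All 5 differences were above 0, as were 46.5% of those of all genes, with a median of 0.43 for the subunits and -0.01 over all genes.

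Without the array labelled MT8m replicate 1, MT8m is a single array, whose spread is assumed to be like that of the other groups. The array left out was singled out by Thy1, Cst7 and Gfap. For a gene that varies with them these values are no independent evidence. Ncf1 then passed the limma test at 8 months (2.29 ± 0.18, adjusted p = 0.0100), where 0.184% of all probe sets were called higher, and averaged over ages (1.40 ± 0.11, adjusted p = 0.00618), where 0.24% were. It also passed the test of any difference among the 4 groups (adjusted p = 0.0291, 0.129% of probe sets). Cyba (1.98 ± 0.33, adjusted p = 0.103) and Cybb (1.38 ± 0.24, adjusted p = 0.128) did not pass at 8 months in that limma fit, nor did Ncf4 (0.60 ± 0.23) or Rac2 (0.29 ± 0.18). Without MT8m replicate 2 in place of it, the 8-month difference was 0.36 for Ncf1 and -0.29 for Cyba, and no gene passed. The 4-month difference of Ncf1, which uses no MT8m array, stayed between 0.43 and 0.56 when each array was left out in turn, and that of Ncf4 between 0.31 and 0.83. The 4-month difference of Cyba ran from 0.14 without LM4m replicate 2 to 0.80 without LM4m replicate 1, that of Rac2 from 0.00 to 0.22 without the same arrays, and that of Cybb from -0.26 without MT4m replicate 1 to 0.13 without MT4m replicate 2.

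**Figure D2:**
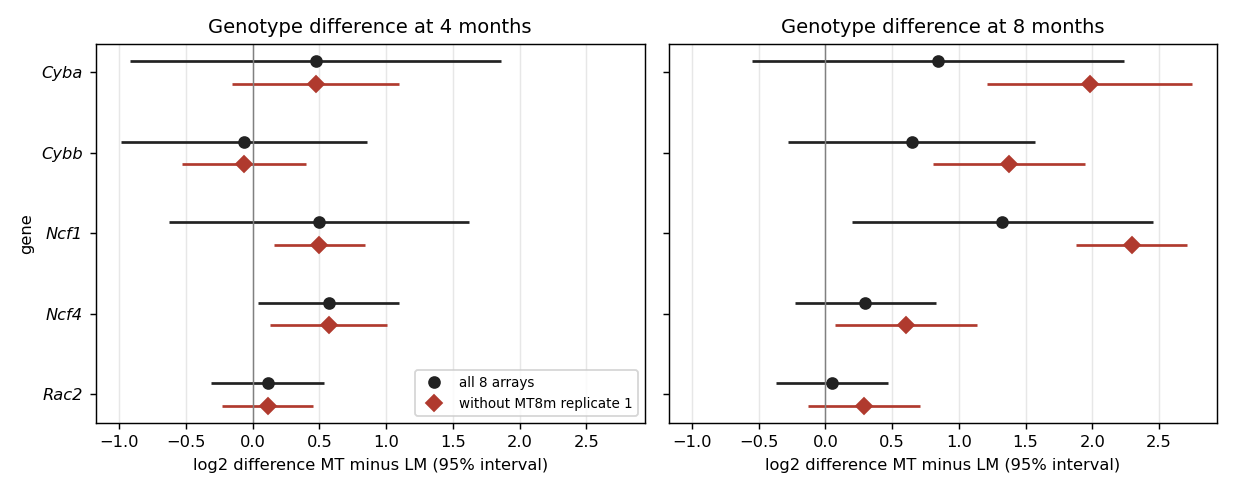
Log2 difference MT minus LM (x axis) with its 95% interval from limma for each subunit at 4 and at 8 months, with all 8 arrays (circles) and without the array labelled MT8m replicate 1 (diamonds). At 8 months the Ncf1 difference is 1.33 with all arrays and 2.29 without that array, while the 4-month differences stay in place and their intervals narrow.

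Age was compared within each genotype. In littermates the differences between 8 and 4 months ran from -0.18 (Ncf1) to 0.17 (Rac2), none passed the limma test (0% of all probe sets did), and the median was -0.02. In MT the difference was 0.69 ± 0.40 for Cybb, 0.64 ± 0.49 for Ncf1, 0.32 ± 0.61 for Cyba, 0.10 ± 0.18 for Rac2 and -0.18 ± 0.23 for Ncf4, again with no gene passing and 0% of all probe sets. Without MT8m replicate 2 the MT difference was -0.32 for Ncf1, -0.81 for Cyba and -0.05 for Cybb, and without the array labelled MT8m replicate 1 it was 1.61, 1.46 and 1.42, none of which passed. The genotype difference changed with age by 0.83 ± 0.70 for Ncf1 and 0.71 ± 0.57 for Cybb, and by -0.27 ± 0.33 for Ncf4. No interaction passed among the subunits or among all probe sets (0%). The 95% interval of the Ncf1 interaction ran from -0.76 to 2.42, and its value was -0.14 without MT8m replicate 2 and 1.80 without the array labelled MT8m replicate 1. These arrays do not settle whether its genotype difference changed with age. In the limma test of any difference among the 4 groups none of the 5 genes passed and 0.0133% of all probe sets did. Over the 10 probe sets and these 7 tests, 7 of 70 limma p-values were under 0.05 before adjustment, and the smallest adjusted p was 0.853. For all probe sets over the same tests the share was 4.38%. Of the 7, 4 came from the brightest probe sets of Ncf1 and Ncf4, which were higher in MT. The rest came from the second Rac2 probe set, which was lower in MT8m. These tests share arrays and are not independent, so the count is no measure of an excess.

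Other probe sets of the same genes had smaller differences or differences of the other sign. Ncf1 had 2 more, with means of 2.19 and 1.64, and their averaged genotype differences were -0.04 and 0.04, against 0.91 for the brightest. MT8m replicate 2 was the highest array for the first of them, at 2.57, and MT4m replicate 1 for the other, at 1.99. The 2 further Cybb probe sets had means of 1.62 and 1.43, both in the range of the Y-linked probe sets, and MT8m replicate 2 measured 1.55 and 1.65 on them, against 3.03 on the brightest. The value of 1.65 was the highest of the 8 arrays for its probe set. The second Rac2 probe set (mean 1.51) measured 1.16 and 1.32 in MT8m, below 1.57 and 1.58 in LM8m (difference -0.33, which did not pass the limma test after adjustment, and -0.25 without the array labelled MT8m replicate 1). Cyba and Ncf4 had 1 probe set each. The statements on Ncf1, Cybb and Rac2 therefore hold for single probe sets, and what parts of the transcripts the others read was not analysed here.

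**Figure D3:**
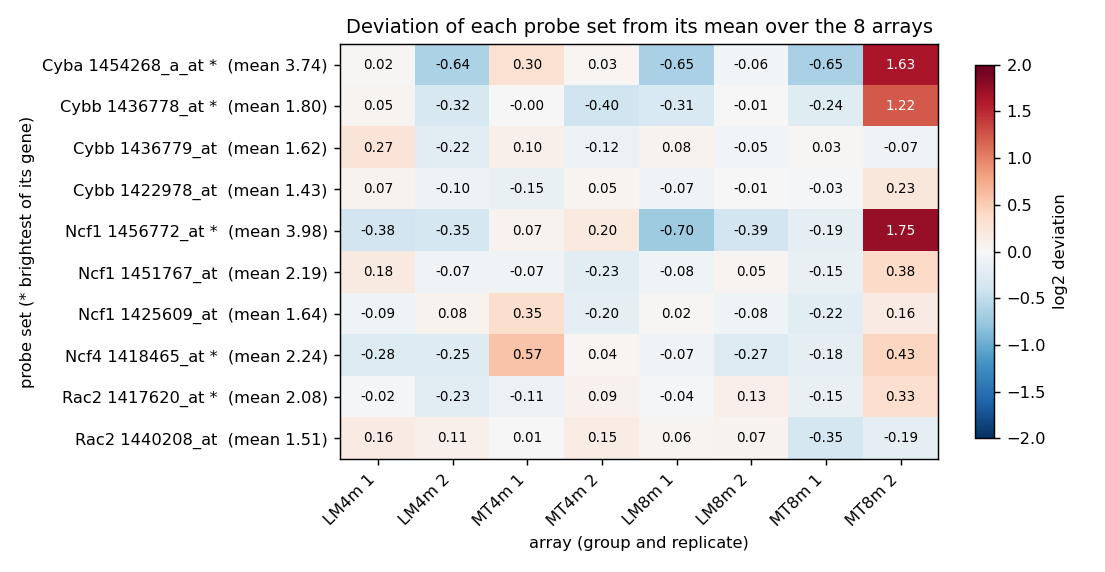
Log2 deviation from its own mean over the 8 arrays (colour and printed value) for each of the 10 probe sets (rows, brightest of each gene starred) on each array (columns). Deviations above 1 occur only on MT8m replicate 2, for the brightest probe sets of Cyba (1.63), Cybb (1.22) and Ncf1 (1.75).

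Of 10 measured genes for other subunits and relatives of the oxidase, none passed the limma test in any comparison, and the median averaged difference was 0.09. Cybc1, a chaperone needed for gp91phox to be made, measured 4.06 and 3.99 in LM4m, 4.38 and 4.24 in MT4m, 4.20 and 4.09 in LM8m, and 4.17 and 4.41 in MT8m, an averaged difference of 0.21 ± 0.10. Hvcn1, the proton channel that balances the charge the oxidase moves, measured 2.48 and 2.77 in LM4m, 2.91 and 2.83 in MT4m, 2.09 and 2.46 in LM8m, and 2.55 and 3.38 in MT8m. Its averaged difference was 0.47 ± 0.18 (limma adjusted p = 0.853), and both MT arrays were above both LM arrays at each age. The same held for 17.2% of all probe sets at 4 months and 15.2% at 8 months. Without the array labelled MT8m replicate 1 the averaged difference of Hvcn1 was 0.68 ± 0.13. That array was singled out by Thy1, Cst7 and Gfap, so for a gene that varies with them this value is no independent evidence. Rac1, the GTPase that can stand in for Rac2 and is made in most cells, lay between 8.67 and 9.24. The catalytic subunit of another oxidase, Nox4, had a mean of 1.63 and differed by 0.15 ± 0.10, and Rac3, a GTPase of neurons, differed by -0.18 ± 0.17.

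Of 21 genes that act in signalling to the oxidase, 17 had averaged differences above 0, as did 46.5% of all genes. None passed, and the median was 0.11. The largest differences were in receptor components. Tyrobp, the adaptor of TREM2, differed by 1.88 ± 0.57 (limma adjusted p = 0.775), Fcer1g, the common chain of activating Fc receptors, by 1.29 ± 0.52, and Itgb2, the beta chain of the integrin CR3, by 1.09 ± 0.46. Itgam, the other chain of CR3, differed by only 0.17 ± 0.13. Prkcd, a kinase that phosphorylates p47phox, differed by 0.39 ± 0.22. Tyrobp measured 6.70 and 6.19 in LM4m, 9.03 and 8.30 in MT4m, 6.22 and 6.63 in LM8m, and 6.41 and 9.51 in MT8m, high on both MT4m arrays and on MT8m replicate 2. Without the array labelled MT8m replicate 1 its averaged difference was 2.65 ± 0.22. That array was singled out by Thy1, Cst7 and Gfap, with which Tyrobp varied, so this value is no independent evidence.

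Genes of antioxidant defence had differences on both sides of 0. Of 21 measured, 9 had averaged differences above 0, as did 46.5% of all genes. None passed the limma test, and the median was -0.07. Slc7a11, the cystine transporter that feeds glutathione synthesis, differed by -0.82 ± 0.33, and Gss, a glutathione synthesis enzyme, by -0.26 ± 0.13. Txn1, or thioredoxin, differed by -0.17 ± 0.10 and Prdx3, a mitochondrial peroxidase, by -0.17 ± 0.10. Of 6 genes for other oxidant enzymes none passed, with Mpo, the peroxidase of neutrophil granules, at 0.01 ± 0.15, Nos2, the inducible nitric oxide synthase, at -0.12 ± 0.11, Nos3 of endothelium at 0.14 ± 0.12 and Xdh, or xanthine oxidoreductase, at 0.20 ± 0.22.

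Among 6 myeloid transcription factors none passed, and the median averaged difference was 0.00. Spi1, which encodes PU.1, lay between 2.26 and 2.56 on all arrays and differed by 0.01 ± 0.10. Irf8, a factor of microglia and macrophages, measured 2.70 and 2.31 in LM4m, 3.24 and 3.27 in MT4m, 2.46 and 2.40 in LM8m, and 1.96 and 4.84 in MT8m. Cebpa differed by 0.48 ± 0.19. Irf8 was thus high on the same 3 MT arrays as Tyrobp. Without the array labelled MT8m replicate 1 the averaged difference of Irf8 was 1.58 ± 0.12. That array was singled out by Thy1, Cst7 and Gfap, with which Irf8 varied, so this value is no independent evidence.

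In whole tissue, more cells of a type and more RNA per cell cannot be told apart. Most markers of microglia and some of astrocytes were high with the subunits on MT8m replicate 2. Relative to their means over the 8 arrays, the 11 microglial markers averaged 1.23 on that array and the 5 subunits 1.07. Of the 11 markers 10 were highest there, as were 14.3% of all probe sets. The 5 astrocyte markers averaged 0.78 on that array and 3 of them were highest there, among them Gfap (9.80) and Aqp4, the water channel of astrocyte endfeet (9.58). Slc1a2 was also highest there, but only at 11.29 against 11.23 on LM8m replicate 2. Gja1 was 10.17 there, below 10.45 on LM4m replicate 1, and Aldh1l1 was 6.30 on both arrays. On the array labelled MT8m replicate 1 the 5 astrocyte markers averaged -0.40. On MT4m replicates 1 and 2 the microglial markers averaged 0.76 and 0.49, while the subunits averaged 0.16 and -0.01. The list means of microglial markers were 4.85 to 4.93 in LM4m, 5.91 to 6.17 in MT4m, 4.71 to 5.18 in LM8m, and 4.90 to 6.64 in MT8m. Both MT4m arrays were above both LM4m arrays for 10 of 11 microglial markers and all 9 markers of plaque microglia. The same held for 3 of 5 subunits and for 17.2% of all probe sets. At 4 months the differences of the microglial markers ran from 0.20 (Tmem119) to 2.29 (Trem2), with 8 of 11 above the highest subunit difference of 0.57, and those of plaque microglia from 0.21 (Csf1) to 4.18 (Cst7), with 5 of 9 above it. The difference between the subunits and these markers was not tested, and none of the markers of either list passed in any comparison. The part of microglia or astrocytes in the subunit values was not tested.

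Neutrophils, monocytes and macrophages of the brain's borders also carry the oxidase. The 8 neutrophil markers had list means from 1.93 to 2.10 over the 8 arrays, and no single value was above 2.85. S100a8 and S100a9, the most abundant neutrophil transcripts, lay between 1.40 and 2.09. The 8 markers of T and B lymphocytes had list means from 2.11 to 2.23. Border macrophage markers were not high on MT8m replicate 2 (list mean 2.02, against 1.99 to 2.53 over all arrays), nor were the 5 monocyte markers (2.84, against 2.58 to 3.18). Both lists were highest on LM4m replicate 1 and LM8m replicate 2. On the same littermate arrays Cyba was 3.77 and 3.69, against 3.11 and 3.09 on the other littermate array of each age, and Cybb was 1.86 and 1.80, against 1.49 and 1.50. F13a1, a monocyte and macrophage transcript, was 3.48 and 3.56 on those arrays and at most 2.25 on any other. Fn1 and Plac8 were also highest on those arrays, but the monocyte markers Ccr2 and Chil3 were not. Col1a2, a collagen of the meninges, was 6.45 and 6.35 there and at most 4.67 elsewhere. Among the other meningeal markers, Lum, Col3a1 and Slc6a13 were highest on those arrays too. Dcn and Col1a1 were not, with their highest values on MT4m replicate 1 and LM8m replicate 1. The part of these cells in the littermate spread of Cyba and Cybb was not tested. Choroid plexus markers were lower in MT at both ages, with both MT arrays below both LM arrays for 6 of 6 genes at each age. The same held for 19.2% of all probe sets at 4 months and 13.1% at 8 months. In the limma test 0 of the 6 passed at 4 months, 2 at 8 months and 5 averaged over ages. For all probe sets the shares were 0%, 0.02% and 0.06%. Kcnj13 differed by -3.41 ± 0.30 (limma adjusted p = 0.00997) averaged over ages. Without the array labelled MT8m replicate 1 its averaged difference was -3.51 ± 0.35 (adjusted p = 0.0134).

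**Figure D4:**
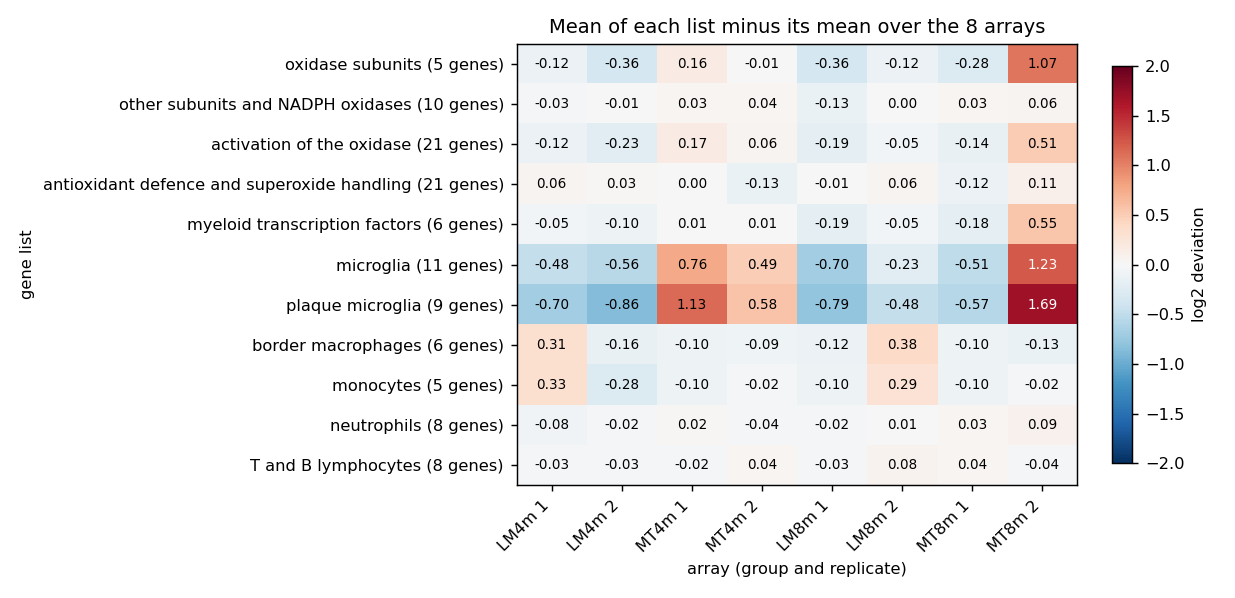
Mean log2 value of each gene list minus its own mean over the 8 arrays (colour and printed value), by list (rows, with the number of genes measured) and array (columns). The subunits average 1.07 on MT8m replicate 2 and 0.16 and -0.01 on MT4m replicates 1 and 2, where the 11 microglial markers average 1.23, 0.76 and 0.49.

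The levels of the subunits were compared with each other over the 8 arrays, as a description. Pearson's r was 0.920 between Cyba and Cybb, 0.918 between Cyba and Ncf1, and 0.868 between Cybb and Ncf1, and the lowest was 0.339 between Ncf4 and Rac2. Without MT8m replicate 2 the first 3 values were 0.601, 0.596 and -0.08, so the likeness of Cybb and Ncf1 rested on that array. All points share the arrays and their normalization.

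Among 1308 genes whose brightest probe set ranged over at least 1 log2 unit, the genes most like the mean of the 5 subunits over the 8 arrays were Ikzf1, a transcription factor of blood cells (r = 0.992, rho = 0.952), Naglu, a lysosomal hydrolase (0.989), Pros1, or protein S (0.989), S100a6 (0.980) and C3ar1, the complement C3a receptor (0.978). Without MT8m replicate 2, r was 0.953 for Ikzf1 and 0.857 for C3ar1. For single subunits the closest genes were Srgn, a proteoglycan of secretory granules, for Cyba (0.980), Plce1, a phospholipase C, for Cybb (0.968), Cd84, a receptor of leukocytes, for Ncf1 (0.995), Clec7a, the pattern receptor Dectin-1, for Ncf4 (0.944) and Wasf2, which drives actin assembly downstream of Rac, for Rac2 (0.963). Without MT8m replicate 2 these values were 0.929, 0.769, 0.960, 0.963 and 0.930. The next genes for Ncf1 were Glycam1, Parp9, Lpxn and C3ar1, and those for Ncf4 were Ccl6, Ctsd, Hexa and Tyrobp. Those for Cyba were Ikzf1, S100a6, Pros1 and Plce1, for Cybb Scgb3a1, Ms4a6d, Syngr2 and Naglu, and for Rac2 Ifi30, Irf9, Tnfrsf1a and Fli1. Cybb lay in the range of the Y-linked probe sets on 7 of the 8 arrays. Its r without MT8m replicate 2 was 0.609 with Scgb3a1, 0.564 with Ms4a6d, 0.932 with Syngr2 and 0.656 with Naglu. These likenesses are descriptions over 8 arrays and carry no test.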

How the data were processed

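Hippocampal RNA of 8 samples was hybridised to 1-colour Affymetrix arrays. Per the labels and the study's methods, the authors used RMA in the R package affy, whose version is not given in the sources used here. They deposited 45101 probe sets as log2 values, including 64 controls. Values between 0.979 and 12.8 are low for RMA and leave the scale's offset unknown, and scanner files and detection calls were not analysed here. Of the 45037 other probe sets, 34945 had 1 gene symbol, 932 several and 9160 none, and symbols were updated by Entrez identifier through a RefSeq table (GRCm38.p6, 34741 found). Group means of the 4 groups were fitted on all 8 arrays by lmFit and eBayes of limma 3.58.1 under R 4.3.3 (4 residual degrees of freedom), with two-sided p-values adjusted by Benjamini-Hochberg over all 45037 probe sets and a threshold of 0.05. The members, gene lists and tests were chosen with earlier results of these data known, so no p-value was computed over a list. Named were the members, Cybc1, Hvcn1, Rac1 and Spi1, and up to 4 genes per list with the largest averaged genotype difference. The 5 genes most like each member were named too. Irf8 values by array, S100a8 and S100a9 ranges, Tmem119, Csf1, F13a1 and Col1a2 were singled out after their values were seen. The other monocyte, meningeal and astrocyte markers were then named beside those singled out or highest, and Itgam beside Itgb2. Alternatives were cyclic loess, leaving out dim probe sets, a robust prior with a trend, a single probe set for each gene, fits of the 2 groups compared alone, an additive model, the title number as a block, each array left out, and the other probe sets of a gene. A change of sign was not counted as a reversal where neither setting passed the test. Simulated data with known changes were used to check the fit. The number of arrays limits the precision.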

Additional observations from a re-analysis of the deposited data

How the results depend on the processing

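Apart from leaving out single arrays, no alternative changed a call or the sign of a difference in a subunit's brightest probe set. This holds for cyclic loess, the trended and robust prior, 1 probe set a gene, the fits of 2 groups alone, the additive model and the filter on dim probe sets, which kept Cyba and Ncf1 among the subunits. Over all alternatives 3 of 869 tests of subunit probe sets passed, all of Ncf1 without the array labelled MT8m replicate 1. Leaving out each array in turn, the number of subunits passing ran from 0 to 1 for the difference at 8 months, the averaged difference and the test among the 4 groups, and was 0 throughout for the others. The median of the 5 differences then ran from 0.14 to 0.49 at 4 months, from -0.087 to 1.38 at 8 months, from 0.09 to 0.66 averaged over ages, from -0.18 to 0.16 for age in LM, from -0.32 to 1.42 for age in MT and from -0.31 to 1.44 for the interaction. At 8 months, averaged over ages, for age in MT and for the interaction, the lower end came without MT8m replicate 2 and the upper end without MT8m replicate 1. With the replicate block, the number in the titles as a block, 0 subunits passed in every comparison. Deviations of same-numbered arrays from their group means had r = 0.241 in LM and -0.175 in MT. Whether same-numbered samples share more than a number was not tested. The mean residual SD of the subunits was 0.526. The SE of the 4-month difference was 0.49 for Ncf1, 0.61 for Cyba and 0.40 for Cybb with all arrays and 0.14, 0.27 and 0.20 without the array labelled MT8m replicate 1. Cybb on 7 arrays, and Ncf4 and Rac2 on 3 each, lay in the range of the Y-linked probe sets, so their differences are limited by the bottom of the scale.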
